A study of Caenorhabditis elegans with 6 samples.

Results

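The vacuolar proton pump (V-ATPase) and the acid proteases that work behind it were followed in *Caenorhabditis elegans* given JM03, which the series title names as derived from crotamiton. Members were all rows of the deposited TPM table whose gene name is vha, asp, cpr or cpl followed by a hyphen and a number. This gave 47 of 46778 genes, of which 20 were pump (vha) genes, 19 were aspartyl protease (asp) genes and 8 were cysteine protease (cpr and cpl) genes. RNA-seq libraries came from 3 samples labelled JM03 and 3 labelled control, all from total RNA. The labels give no strain, stage, dose or length of exposure, and do not name the vehicle, if any, given to the controls. They do not state that the samples of a group were separate cultures. Each p given here sets a group difference against the scatter of these particular libraries, and that scatter may be technical.

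The pump moves protons into lysosomes and other compartments, and out across some cell membranes, at the cost of ATP. Its V1 sector, in the cytosol, splits ATP and turns a rotor, and its V0 sector, in the membrane, carries the protons. The acid that it makes favours aspartyl proteases of the cathepsin D type and cysteine proteases of the cathepsin B and L types, many of which digest proteins in lysosomes. In the worm the intestine is rich in both, and it uses these proteases for food as well as for turnover of its own proteins. The name pattern does not select for lysosomes: *cpr-1* is described in the table as gut-specific, *asp-10* carries the name *hrg-7* in the annotation, and *asp-11* is annotated as a pseudogene.

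TPM is a length-scaled share of all transcripts, so levels of different genes can be set side by side, but it keeps no read depth and the depth behind each value is unknown. Control replicate 3 was unlike the rest. Across tested genes its Spearman correlations with the other 5 were 0.784 to 0.866, against 0.901 to 0.978 among those 5, and ribosomal RNA took 4.37% of its TPM, against 0.338% to 0.639%. The counts of calls and the class medians are therefore given with and without it. Spreads, ratios and summed levels are given with all 6 libraries. A gene was tested if 3 or more libraries reached 1 TPM, which 39 members did.

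In limma with Benjamini-Hochberg adjustment, none of the 39 tested members passed an adjusted p of 0.05. Of all 12912 tested genes 0.132% passed, 0.0929% with higher levels in JM03. At an unadjusted p below 0.05 the count was 2 of 39 members, *asp-10* and *asp-13*, against 11.7% of all tested genes. Without control replicate 3 again no member passed, against 0.132% of all genes (0.0774% higher in JM03), and 7 had an unadjusted p below 0.05, against 19.5%. The smallest adjusted p among the members was 0.371 with all libraries and 0.233 without control replicate 3. Levels and their spread are therefore described, and no member is said to have changed.

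All 20 pump genes were tested, and they averaged 9.27 TPM (*vha-5*) to 355 TPM (*vha-2*) over the 6 libraries. The summed level of the pump was 2991, 2788 and 3006 TPM in JM03 replicates 1 to 3, against 2710, 2183 and 806 TPM in control replicates 1 to 3. The JM03 sums lay close together and above all control sums, and control replicate 3 was far below the others. Ribosomal protein genes took 24.8%, 26.1% and 25.4% of TPM in JM03 and 28.0%, 29.9% and 36.4% in control. A larger share for them leaves less TPM for other genes, and its part in these sums was not tested. In such bulk RNA, fewer cells of a type and less RNA per cell cannot be told apart. The JM03 values of 11 pump genes lay above all control values, as did those of 21.9% of all tested genes. The 11 were *vha-1*, *vha-2*, *vha-4*, *vha-5*, *vha-7* and *vha-17* of the V0 sector, *vha-11*, *vha-12*, *vha-13* and *vha-14* of the V1 sector, and the accessory gene *vha-20*. In no pump gene or protease did all JM03 values lie below all control values, as they did for 9.41% of all tested genes. With control replicate 3 left out, they did in 1 pump gene, *vha-18*, and 1 protease, *cpr-2*, against 18.5% of all tested genes. The count of pump genes above the controls was then again 11, against 23.7% of all tested genes.

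In the V1 sector, *vha-13* (WBGene00013025, V:14351709 to 14354422 on the WBcel235 build, plus strand) encodes the catalytic subunit A. Its level was 149, 133 and 153 TPM in JM03 and 128, 97.4 and 28.1 TPM in control. The groups did not overlap, but JM03 replicate 2 and control replicate 1 were only a few TPM apart, and the fitted log2 fold change was 1.02 ± 0.553 (SE; limma adjusted p = 0.480). Subunit B, the nucleotide-binding partner of A, is encoded by *vha-12* (WBGene00006921, X:4191094 to 4193144, plus strand). It had 88.9, 71.4 and 92.3 TPM in JM03 and 69.8, 39.5 and 8.27 TPM in control, and its log2 fold change, 1.504 ± 0.720 (SE; limma adjusted p = 0.465), was the highest of the pump. All fold changes were computed from log2(TPM + 1), so those of genes near 1 TPM come out too small.

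The rotor subunits D and F and the stator subunits E and G averaged more TPM than A and B. Rotor subunit D (*vha-14*) had 167.42, 166.97 and 167.03 TPM in JM03 and 157, 152 and 49.3 TPM in control. The JM03 values of *vha-14* agreed to within 0.146% (coefficient of variation), and the 2 nearest controls were slightly below them. Rotor subunit F (*vha-9*) had 367, 387 and 387 TPM in JM03 and 369, 298 and 144 TPM in control, so that control replicate 1 lay inside the JM03 range. Subunit G (*vha-10*) averaged 237 ± 16.5 TPM in JM03 and 169 ± 82.4 TPM in control (SD, n = 3 each), and *vha-8* (subunit E) 171 ± 11.04 TPM in JM03 and 107 ± 61.7 TPM in control. Subunit C (*vha-11*) had 80.9, 80.3 and 84.5 TPM in JM03 against 76.7, 65.1 and 9.34 TPM in control.

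Subunit H, which links the V1 sector to V0, has 2 genes with unlike patterns. *vha-15* (X:2237911 to 2240255) had 49.7, 42.5 and 53.1 TPM in JM03 and 45.2, 29.0 and 6.90 TPM in control. *vha-18* (WBGene00018698, V:8411775 to 8413482) had 58.2, 58.0 and 57.6 TPM in JM03 and 58.5, 63.4 and 42.8 TPM in control, and its log2 fold change of 0.10 ± 0.283 (SE; limma adjusted p = 0.827) was the lowest in the pump. In JM03, *vha-15* supplied 46.1%, 42.3% and 48.0% of the summed H transcripts, against 43.6%, 31.4% and 13.9% in control. The share was thus similar in JM03 and control replicate 1, and lower in the other 2 controls. *vha-18* overlaps a coding gene on the other strand by 57 bases, which was at 3.02 to 4.34 TPM. Whether reads were counted by strand is not stated, so reads from such overlaps cannot be told apart.

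**Figure D1:**
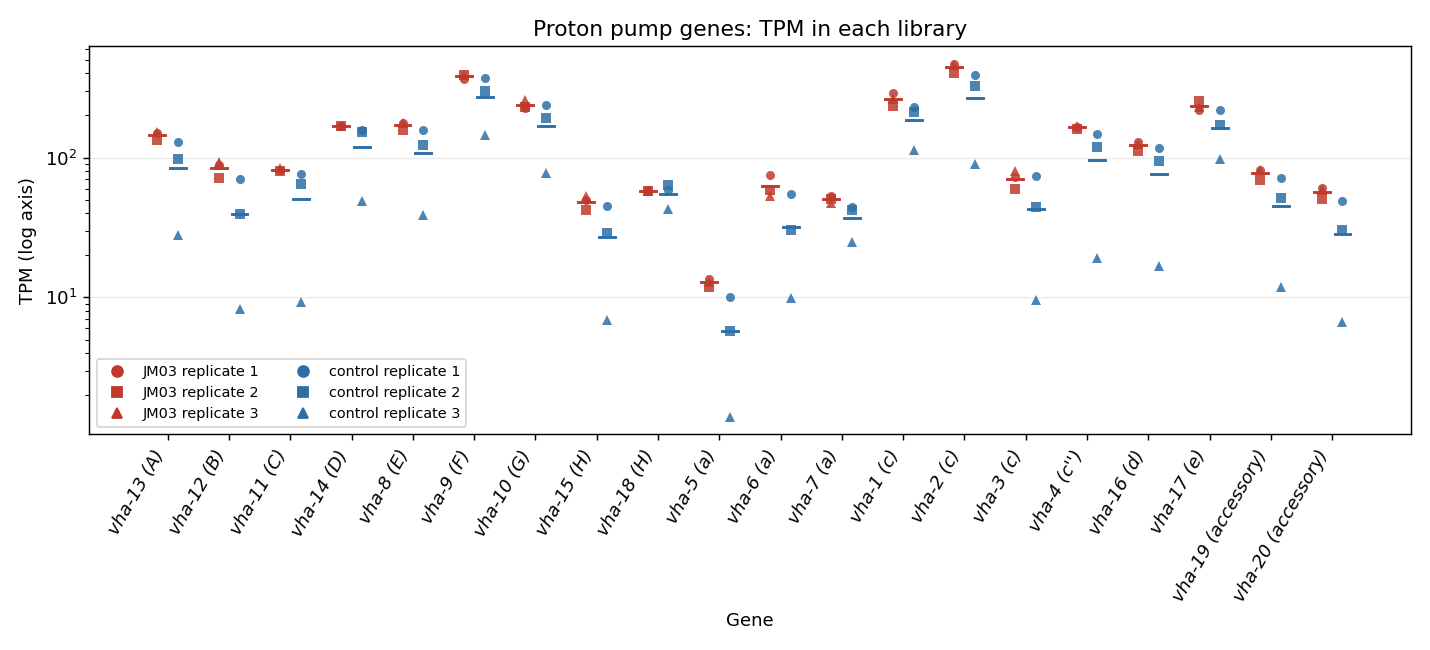
TPM of the 20 pump genes on a log axis, in order of sector and subunit (letters after each name), with JM03 libraries in red left of control libraries in blue. Symbols mark replicates and horizontal bars the group means. Control replicate 3 (blue triangles) was the lowest library for every pump gene, and for 64.7% of all tested genes. Control replicate 1 lay at or above the lowest JM03 value for 9 of the 20, against 68.5% of all tested genes.

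In the V0 sector, the proteolipid c subunits that form the proton-carrying ring came from *vha-1*, *vha-2* and *vha-3*. *vha-2* (WBGene00006911, III:9782164 to 9783224, plus strand) had 467, 400 and 459 TPM in JM03 and 393, 323 and 89.9 TPM in control (log2 fold change 0.97 ± 0.539 SE, limma adjusted p = 0.486). *vha-1* lies 400 bases upstream on the same strand and had 288.03, 234.84 and 260.57 TPM in JM03 and 229, 212 and 113 TPM in control. *vha-3* (IV:2315460 to 2315945) had 72.6, 60.1 and 79.9 TPM in JM03 and 74.0, 44.6 and 9.63 TPM in control. *vha-2* held 56.4% to 57.6% of the c transcripts in JM03 and 55.7% to 56.5% in control replicates 1 and 2, against 42.3% in control replicate 3. The table describes *vha-2* and *vha-3* by 1 shared protein entry, and reads that fit both may have been divided between them.

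The variant c subunit gene *vha-4* had 165, 160 and 167 TPM in JM03 and 148.41, 118.71 and 18.99 TPM in control, and its log2 fold change was 1.22 ± 0.734 with all libraries and 0.30 ± 0.111 without control replicate 3 (SE; limma adjusted p = 0.490 and 0.240). The small subunit e gene *vha-17* had 220, 255 and 231 TPM in JM03 and 219, 171 and 98.0 TPM in control. Subunit d, from *vha-16* on chromosome I, averaged 122.03 ± 9.13 TPM in JM03 and 76.2 ± 52.6 TPM in control (SD, n = 3 each). In all 3 genes control replicate 3 was the lowest library.

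Subunit a, the large membrane subunit that lines the proton path, exists in several forms with different tissues. *vha-6*, the intestinal form, had 74.9, 58.9 and 53.2 TPM in JM03 and 55.1, 30.4 and 9.83 TPM in control. *vha-5*, the form of the epidermis and excretory canal, was the scarcest pump gene, at 13.56, 11.87 and 12.97 TPM in JM03 and 10.0, 5.79 and 1.40 TPM in control. Its log2 fold change of 1.29 ± 0.556 had the smallest p of the pump (SE; limma adjusted p = 0.435, and 0.67 ± 0.242 with adjusted p = 0.237 without control replicate 3). *vha-7* had 53.1, 50.4 and 47.6 TPM in JM03 and 44.3, 42.4 and 24.9 TPM in control, with no overlap. The fourth form, *unc-32*, which the name pattern leaves out, had 42.9, 38.6 and 41.4 TPM in JM03 and 36.2, 34.9 and 4.55 TPM in control. In each JM03 library the order from high to low was *vha-6*, *vha-7*, *unc-32* and *vha-5*. The JM03 ranges of *vha-6* and *vha-7* were barely apart, the lowest *vha-6* value being 53.19 TPM and the highest *vha-7* value 53.08 TPM, whereas in control replicates 2 and 3 *vha-7* was the most abundant form.

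The accessory genes *vha-19* and *vha-20* encode membrane proteins that accompany the pump. *vha-19* had 81.1, 68.7 and 81.2 TPM in JM03 and 71.4, 51.2 and 11.8 TPM in control (log2 fold change 1.09 ± 0.640 SE, limma adjusted p = 0.490). *vha-20* had 61.1, 50.4 and 59.1 TPM in JM03 and 48.9, 30.2 and 6.68 TPM in control (1.34 ± 0.678 SE, limma adjusted p = 0.473). Only the second of these had all its JM03 values above its controls.

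Of the proteases, 19 of 27 passed the filter, 12 of them aspartyl and 7 cysteine. Their summed level was 8282, 6719 and 6178 TPM in JM03, against 6778, 4292 and 2999 TPM in control. The groups overlapped, since control replicate 1 was above JM03 replicates 2 and 3, and control replicates 2 and 3 were both low. The JM03 values of 1 tested protease, *asp-10*, lay above all its control values, against 21.9% of all tested genes. Protease transcripts outweighed pump transcripts 2.77, 2.41 and 2.06 times in JM03 and 2.50, 1.97 and 3.72 times in control, so the ratio of the summed levels did not separate the groups.

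A few aspartyl proteases made up most of the protease transcripts of the genes matched by name. *asp-1* (WBGene00000214, V:19049562 to 19050752, minus strand), an intestinal enzyme, had 1950, 1597 and 1378 TPM in JM03 and 1559, 1078 and 733 TPM in control (log2 fold change 0.60 ± 0.297 SE, limma adjusted p = 0.469). *asp-6* (V:8267511 to 8268937) had 1917, 1458 and 1355 TPM in JM03 and 1570, 1058 and 269 TPM in control. *asp-5* (V:8272385 to 8274044) had 1390, 1188 and 961 TPM in JM03 and 1077, 802 and 607 TPM in control. Each was highest in JM03 replicate 1 and lowest in control replicate 3, with overlapping groups. Together they gave 63.5%, 63.2% and 59.8% of the protease TPM in JM03 and 62.1%, 68.5% and 53.7% in control. The ratio of *asp-6* to *asp-5* was 1.23 to 1.41 in JM03, and 1.46, 1.32 and 0.443 in control replicates 1 to 3, so the pair parted in control replicate 3.

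The aspartyl proteases *asp-3* and *asp-4*, cathepsin D relatives known in the worm for their part in necrotic death of neurons, formed a middle tier. *asp-3* had 619, 466 and 509 TPM in JM03 and 521, 267 and 306 TPM in control, and *asp-4* had 260, 186 and 199 TPM in JM03 and 195, 95.5 and 96.0 TPM in control. Both were lowest in control replicate 2, by a small margin for *asp-4*, and control replicate 1 sat within the JM03 range. *asp-2* averaged 184 ± 32.02 TPM in JM03 and 100 ± 65.1 TPM in control (SD, n = 3 each).

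*asp-13* (WBGene00017881, V:8641602 to 8643193, minus strand) had the largest log2 fold change and the smallest p of all members, at 1.88 ± 0.687 (SE; limma adjusted p = 0.371). Its level was 30.49, 24.64 and 36.01 TPM in JM03 and 24.9, 4.42 and 3.28 TPM in control. The values of control replicate 1 and JM03 replicate 2 were nearly equal, and the difference lay in the other 2 controls. Without control replicate 3 the log2 fold change was 1.39 ± 0.659 (SE; limma adjusted p = 0.300). *asp-14*, with 81.2, 79.9 and 148 TPM in JM03 and 106, 25.2 and 24.8 TPM in control, was likewise highest in JM03 replicate 3. The summed levels of 9 body wall muscle markers were also highest in that library, at 457, 333 and 716 TPM in JM03 and 419, 206 and 149 TPM in control. Each of these 9 genes was highest there. The 10 epidermis markers summed to 41.4, 41.6 and 140 TPM in JM03 and 54.80, 13.96 and 26.54 TPM in control, but only 5 of the 10 were highest in JM03 replicate 3. The collagen gene *col-19* alone had 106.28 TPM in that library, and *dpy-13*, *rol-6*, *col-10*, *elt-3* and *grd-10* were each highest in a control library. Their part in the values of *asp-13* and *asp-14* was not tested.

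*asp-10* (WBGene00007605, V:12742041 to 12744171, plus strand), the gene annotated as *hrg-7*, which encodes a secreted protease-like protein of heme signalling, had 7.77, 7.65 and 8.99 TPM in JM03 and 6.68, 3.09 and 3.04 TPM in control. The groups did not overlap, and the fitted log2 difference was 0.86 ± 0.341 (SE; limma adjusted p = 0.401) and 0.70 ± 0.303 without control replicate 3 (limma adjusted p = 0.271). The remaining tested aspartyl proteases, *asp-8*, *asp-12* and *asp-17*, averaged 2.46 to 34.7 TPM over the 6 libraries. *asp-12* had 41.86, 39.04 and 28.38 TPM in JM03 and 41.5, 34.8 and 22.5 TPM in control, and *asp-17* 12.2, 10.7 and 6.91 TPM in JM03 and 10.8, 8.63 and 6.64 TPM in control. Their groups overlapped almost completely, and their log2 fold changes were 0.17 each.

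Among the cysteine proteases that the name pattern matched, the single cathepsin L-like gene *cpl-1* was the most abundant. This gene (WBGene00000776, V:16592572 to 16595346, minus strand) is needed for yolk processing in the embryo. It had 737, 570 and 668 TPM in JM03 and 620, 335 and 316 TPM in control (log2 fold change 0.70 ± 0.298 SE, limma adjusted p = 0.432). The cathepsin B-like *cpr-6* (X:6607207 to 6609045) had 499, 398 and 443 TPM in JM03 and 406, 163 and 246 TPM in control (0.81 ± 0.346 SE, limma adjusted p = 0.432). In both genes control replicate 1 lay inside the JM03 range and the other 2 controls far below it. *cpr-1* went its own way: it had 378, 407 and 171 TPM in JM03 and 332, 238 and 255 TPM in control, with its lowest value in JM03 replicate 3. Its log2 fold change was 0.13 ± 0.371 (SE; limma adjusted p = 0.821), and it turned to -0.011 with quantile normalization and to -0.054 when TPM was rescaled to protein-coding genes without ribosomal protein genes.

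*cpr-4*, a secreted cathepsin B-like enzyme, had 73.6, 68.9 and 45.3 TPM in JM03 and 74.8, 56.3 and 29.4 TPM in control. Its log2 fold change of 0.29 turned to -0.082 without control replicate 3 and to -0.057 with quantile normalization, none of them called. *cpr-3* and *cpr-5* averaged 26.5 ± 2.76 and 20.6 ± 4.12 TPM in JM03, against 19.4 ± 6.62 and 15.2 ± 5.42 TPM in control (SD, n = 3 each). *cpr-2* (WBGene00000782, V:16532936 to 16534100, minus strand) was the 1 tested member with a negative log2 fold change with all libraries, at 7.29, 4.47 and 4.80 TPM in JM03 and 10.5, 8.81 and 5.98 TPM in control. The fold change was -0.53 ± 0.329 (SE; limma adjusted p = 0.490) and, without control replicate 3, -0.73 ± 0.244 (limma adjusted p = 0.233). As a share of all protease TPM, *cpr-2* took 0.0880%, 0.0665% and 0.0777% in JM03 and 0.155%, 0.205% and 0.199% in control. These shares did not overlap, although the TPM values did, and the summed protease level was lowest in control replicates 2 and 3. The shares of *asp-12* were likewise apart, at 0.505%, 0.581% and 0.459% in JM03 and 0.612%, 0.810% and 0.749% in control, although its TPM values overlapped. So were those of the untested *cpr-8*. No other protease of the 27 had shares that separated the groups. A share rises when the sum falls, and the part of this in these shares was not tested. No like count was made over all tested genes.

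**Figure D2:**
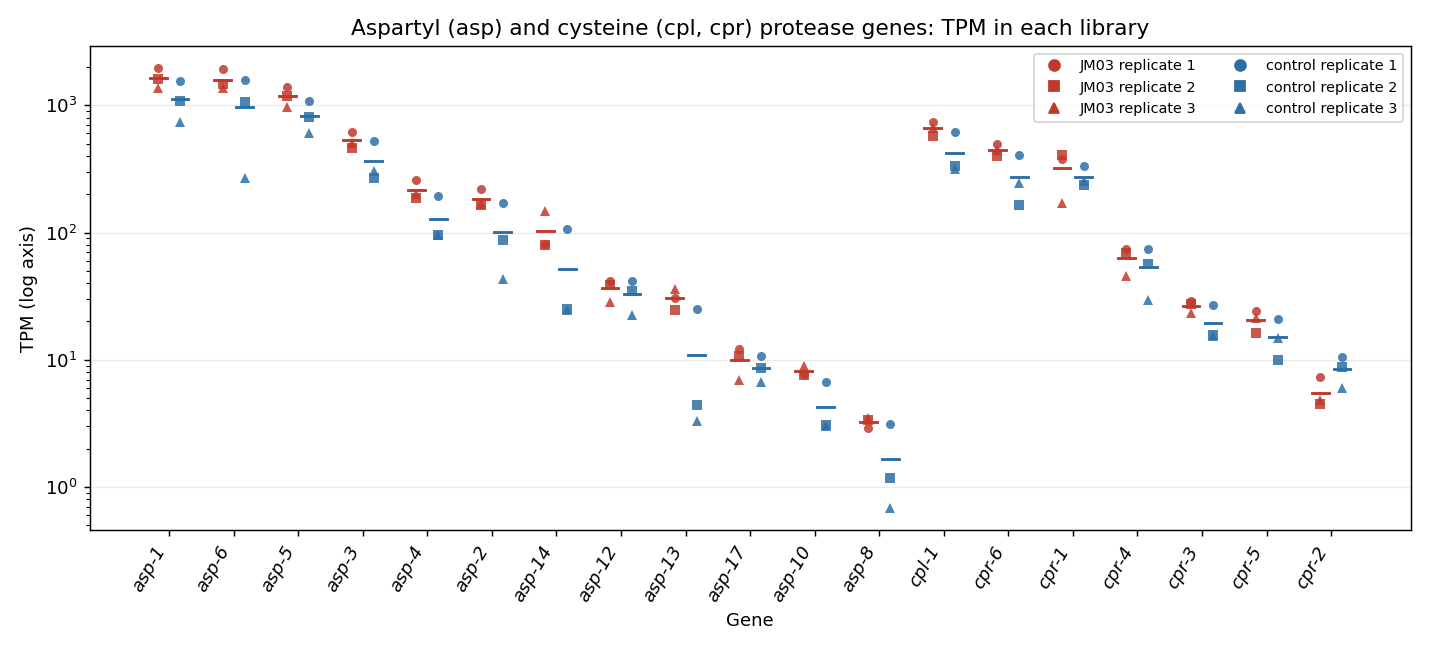
TPM of the 12 aspartyl and 7 cysteine protease genes that were tested, on a log axis and ordered by mean level within each kind, with JM03 in red left of control in blue. Symbols mark replicates and bars the group means. In most genes control replicate 1 lay within or above the JM03 values (18 of 19 at or above the lowest JM03 value, against 68.5% of all tested genes), and control replicates 2 and 3 lay below.

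The 8 members that did not pass the filter were low in every library. *asp-19* was listed at 0 in all 6. *asp-7*, *asp-9*, *asp-11*, *asp-15*, *asp-16* and *asp-18* stayed at or below 0.26 TPM. *cpr-8* lay just outside the filter, at 1.01, 0.99 and 0.70 TPM in JM03 and 1.04, 0.69 and 0.99 TPM in control. *asp-8*, just inside it, had 2.92, 3.35 and 3.52 TPM in JM03 and 3.14, 1.18 and 0.68 TPM in control. The table holds the gene that the reference calls *cpr-9* under F57F5.1, outside the pattern, with 763, 639 and 486 TPM in JM03 and 583, 359 and 332 TPM in control. The protease sums, shares and ratios given here leave out this gene and other proteases outside the pattern.

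By class, 20 of 20 tested pump genes had a positive log2 fold change with all libraries, as had 12 of 12 aspartyl and 6 of 7 cysteine proteases, where 72.7% of all tested genes were positive. Without control replicate 3 the counts were 19, 11 and 5, against 56.5% of all genes. The pump median was 1.04, against 0.35 over all tested genes, a difference of 0.69. Without control replicate 3 the pump median was 0.29, against 0.046 over all genes, a difference of 0.24. The aspartyl median relative to all genes was 0.44 with all libraries and 0.45 without that library, and the cysteine median 0.10 and 0.29. The pump thus stood above both protease classes relative to all genes with the 6 libraries, and below both without control replicate 3. No p is given for these medians, because the members were chosen with earlier results known.

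**Figure D3:**
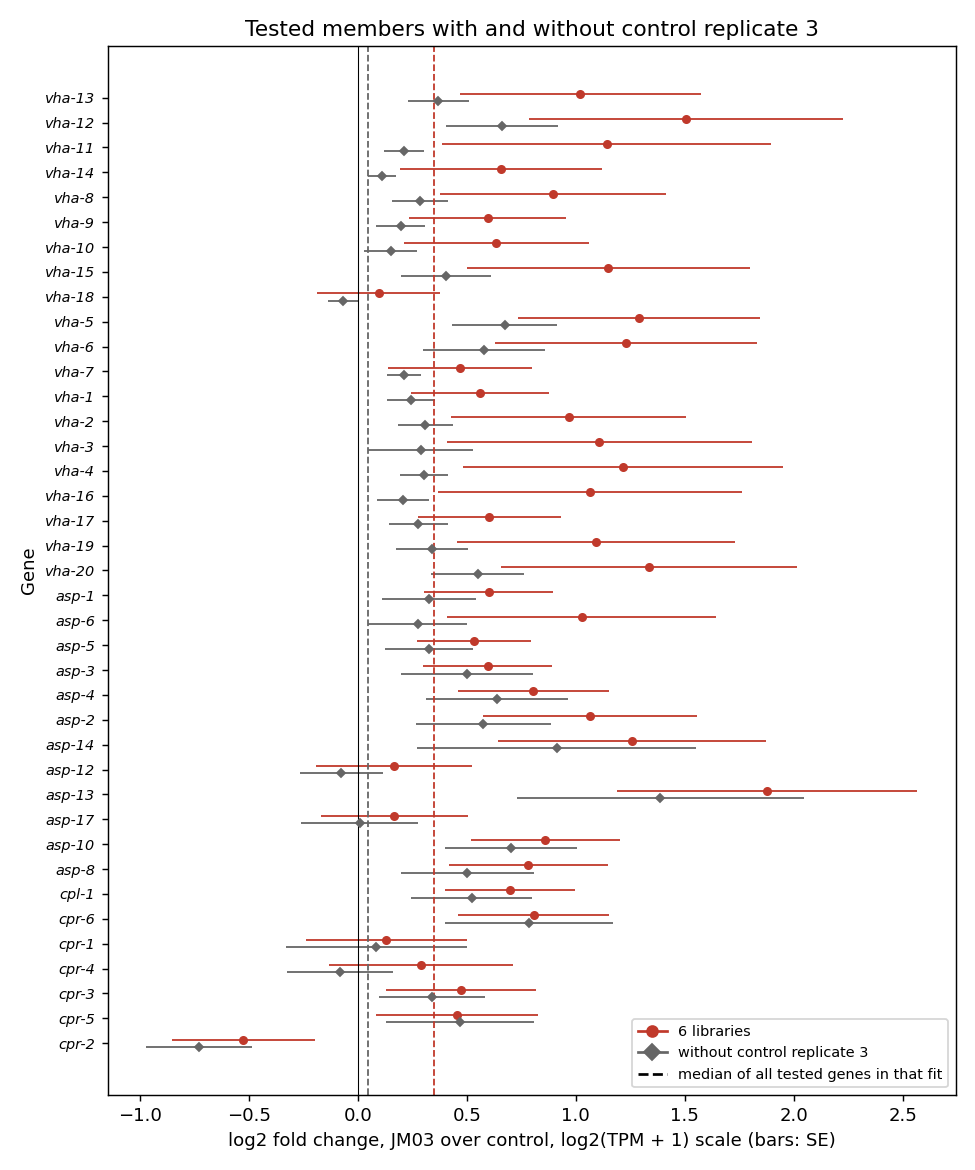
Log2 fold change of each tested member, JM03 over control on the log2(TPM + 1) scale, with all libraries (red circles) and without control replicate 3 (grey diamonds). Bars are SE from limma, and dashed lines are the medians of all tested genes, 0.35 and 0.046. Pump values moved most between the fits: their median was 1.04 with all libraries and 0.29 without that one.

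Setting the mean of the JM03 libraries against each control library separately showed where the differences lay. Against control replicate 1, the median difference on the log2(TPM + 1) scale was 0.11 for the pump, 0.050 for the aspartyl and -0.034 for the cysteine proteases, and 0.029 for all tested genes. Against control replicate 2 it was 0.46 for the pump, 0.97 for the aspartyl and 0.72 for the cysteine proteases, against 0.049 for all genes. Against control replicate 3 it was 2.42 for the pump, 1.16 for the aspartyl and 0.74 for the cysteine proteases, against 0.84 for all genes. The control libraries thus differed among themselves: the proteases were the lower class in replicate 2 and the pump in replicate 3.

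In control replicate 2, 7 of the 19 tested proteases, and 0 of the 20 pump genes, were at or below 50% of their control replicate 1 level, as were 6.54% of all tested genes. Of 14 intestine markers, 12 were also lower in control replicate 2 than in control replicate 1, and *erm-1* (81.28 and 80.64 TPM) and *end-3* (1.57 and 0.83 TPM) were not. Their summed level was 9168, 6679 and 7805 TPM in JM03 and 8363, 4303 and 3211 TPM in control. The yolk protein genes *vit-2*, *vit-5* and *vit-6* made up 88.5% to 93.2% of that sum in each library. The other 11 summed to 627, 554 and 628 TPM in JM03 and 627, 418 and 369 TPM in control, so control replicate 1 lay within the JM03 range in these too. Of the 14 markers, 12 were lowest in control replicate 3, but *mtl-2* was highest there. *mtl-2* alone had 120, 121 and 127 TPM in JM03 and 143, 103 and 231 TPM in control. It thus made up most of the sum of the 11 in control replicate 3. Of the 13 tested, 12 fold changes were positive (11 with control replicate 3 left out), against 72.7% and 56.5% of all tested genes, and none was called. The 12 oocyte markers summed to 9448, 7986 and 8965 TPM in JM03 and 7593, 6132 and 3378 TPM in control, and the 12 sperm markers to 694, 1063 and 522 TPM in JM03 and 1506, 2313 and 2860 TPM in control. With and without control replicate 3, fold changes were positive for all 12 oocyte markers and for 0 of the 12 sperm markers, none of them called. The JM03 values of 10 oocyte markers lay above all control values, against 21.9% of all tested genes. The 6 excretory cell markers summed to 99.4, 89.4 and 95.9 TPM in JM03 and 77.2, 74.0 and 25.4 TPM in control. Among the 6, all JM03 values lay above all control values only in *aqp-8*. That gene had 47.4 to 65.5 TPM in JM03 and 11.2 to 36.2 TPM in control. For the 5 tested excretory cell markers, 4 fold changes were positive (2 with control replicate 3 left out). Their median relative to all genes was -0.17, and -0.18 without that library. The 5 pharynx markers summed to 14.6 to 27.9 TPM, and the 3 coelomocyte markers to 0.35 to 1.18 TPM with none tested. The part of these tissues in the values of the members was not tested.

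**Figure D4:**
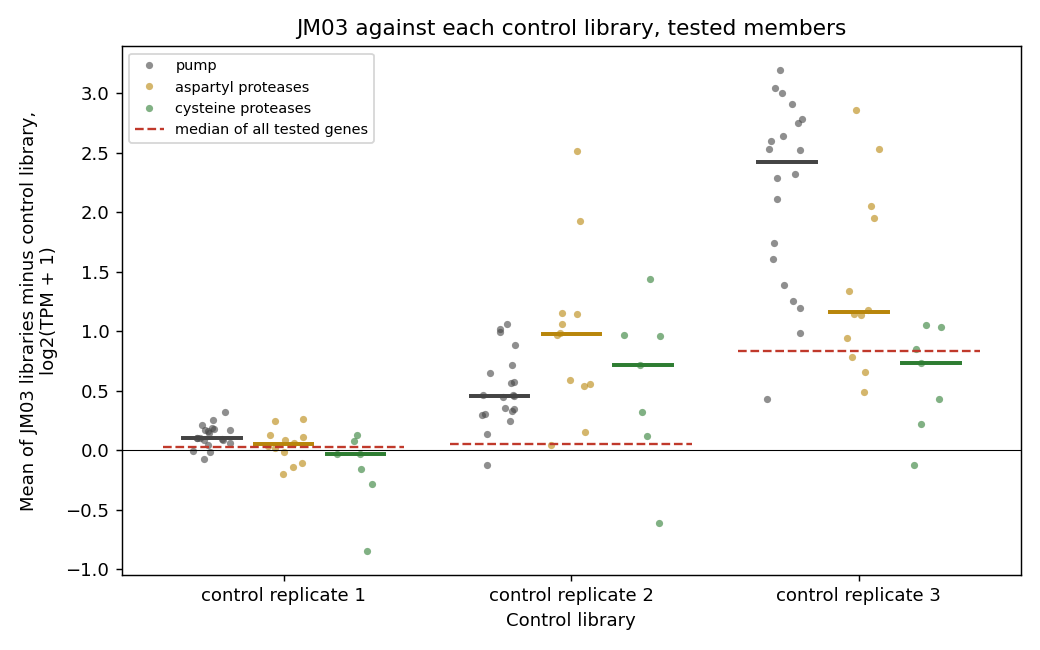
Mean of the 3 JM03 libraries minus each control library on the log2(TPM + 1) scale, with 1 point for each tested member and solid bars at class medians. Dashed red lines mark the median of all tested genes. The pump median was 0.11, 0.46 and 2.42 against control replicates 1, 2 and 3, and the aspartyl median 0.050, 0.97 and 1.16.

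Within control replicate 3 the pump genes were unequal. Relative to its median in the other 5 libraries, the median pump gene was lower by 2.29 on the log2(TPM + 1) scale, the median protease by 0.97 and the median tested gene by 0.82. The smallest deviations in the pump were -0.43 for *vha-18*, -0.91 for *vha-7* and -1.05 for *vha-1*, and the largest were -3.01 for *vha-4*, -2.98 for *vha-11* and -2.96 for *vha-12*. Spearman's rho between this deviation and transcript length was -0.54 over the 12895 tested genes with a length, -0.14 over the 20 pump genes and -0.17 over the 19 proteases. These correlations are across genes of the same libraries and are descriptions. Genes of like length parted: *vha-3*, with a transcript of 486 bases, deviated by -2.79, and *vha-1*, with 510 bases, by -1.05. The pump median transcript length was 1348 bases, against 1220 for the tested proteases and 1267 for all tested genes.

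Among the JM03 libraries the pump genes varied little. Their median coefficient of variation there was 7.498%, against 18.2% for the proteases and 11.3% for all tested genes. Median levels were 82.6 TPM for the pump, 77.6 TPM for the tested proteases and 14.7 TPM for all tested genes. The part of level in the spread was not tested. In control, replicate 3 included, the median coefficient was 64.1% for the pump, 40.1% for the proteases and 46.1% for all genes. The coefficient was larger in control than in JM03 for all 20 pump genes. The same was true of 16 of 19 proteases and of 84.2% of all tested genes, so the protease count was that of genes in general. Summed V1 transcripts were 0.920, 0.987 and 0.993 times the summed V0 transcripts in JM03 and 1.01, 1.02 and 1.06 times in control. All JM03 ratios were thus below all control ratios, JM03 replicate 3 and control replicate 1 being close together, and this difference was not tested.

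The members also differ in genome position, on the WBcel235 build. Of the 27 protease genes, 22 (81.5%) lie on chromosome V, which holds 24.99% of annotated protein-coding genes, whereas the 20 pump genes are spread over chromosomes I, II, III, IV, V and X. On chromosome V, *asp-6*, *asp-12*, *asp-5* and *asp-11* lie next to each other with gaps of 272 to 328 bases. *asp-12*, between *asp-6* and *asp-5*, had 28.4 to 41.9 TPM in JM03 and 22.5 to 41.5 TPM in control, where *asp-6* and *asp-5* had at least 1355 and 961 TPM in JM03. *asp-17*, *asp-16* and *asp-15* precede *asp-1* in coordinate order on the same strand, and *asp-15* and *asp-16* stayed at or below 0.19 TPM beside the most abundant protease gene. Neighbouring copies may share reads, so low values beside an abundant relative are uncertain. In addition, 9 tested members overlap another coding gene by 7 to 219 bases, 7 of them on the other strand. *asp-10* overlaps C15C8.7 by 7 bases, which had 102, 95.9 and 79.3 TPM in JM03 and 106, 129 and 13.2 TPM in control. *vha-19* overlaps *otub-4* by 99 bases, which had 58.8, 60.9 and 62.7 TPM in JM03 and 56.1, 54.3 and 16.9 TPM in control. Both lie on the other strand, and the part of overlaps in the members' values was not tested.

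Other genes of the lysosome were followed by lists. Of 33 further lysosomal hydrolases, 28 were tested, and all 28 fold changes were positive whether or not control replicate 3 was kept, against 72.7% of all tested genes with it and 56.5% without it. None was called. Their median relative to all genes was 0.57 with all libraries and 0.58 without that one, and the JM03 values of 11 of the 28 lay above all control values, against 21.9% of all tested genes (23.7% without that library). The glucosylceramidase-like gene *gba-2* had 22.04, 19.15 and 8.09 TPM in JM03 and 1.49, 1.18 and 0.26 TPM in control (log2 fold change 3.09 ± 0.460 SE, limma adjusted p = 0.121). *asm-3*, an acid sphingomyelinase gene, had 9.41, 7.16 and 9.26 TPM in JM03 and 2.74, 1.39 and 2.52 TPM in control (1.597 ± 0.298 SE, limma adjusted p = 0.262). In both genes every JM03 value lay well above every control value, yet neither passed the threshold. With control replicate 3 left out, the limma adjusted p was 0.233 for each.

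The cystatins *cpi-1* and *cpi-2* encode inhibitors of cysteine proteases. *cpi-1* had 505, 469 and 347 TPM in JM03 and 283, 190 and 310 TPM in control, without overlap (log2 fold change 0.77 ± 0.272 SE, limma adjusted p = 0.358). *cpi-2* had 427, 432 and 408 TPM in JM03 and 416, 350 and 188 TPM in control. Unlike the pump genes, *cpi-1* was lowest in control replicate 2 and not in replicate 3.

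Of 24 genes of the lysosome membrane and of traffic to it, 22 were tested, 21 of them above 0 in log2 fold change (17 with control replicate 3 left out) and none called. Their median relative to all genes was 0.23, and 0.065 without control replicate 3. The amino acid exporter gene *laat-1* had 70.1, 55.3 and 61.3 TPM in JM03 and 48.7, 45.1 and 16.7 TPM in control, and the CD36-related *scav-1* 7.19, 6.30 and 6.21 TPM in JM03 and 6.25, 3.1 and 1.04 TPM in control (limma adjusted p = 0.474 and 0.472). Of 10 regulators, all tested, 9 were above 0 in log2 fold change (10 with control replicate 3 left out), with a relative median of 0.33 and 0.14, and none was called. *lmtr-3*, of the Ragulator complex that recruits TOR signalling to lysosomes, had 180.24, 337.33 and 194.29 TPM in JM03 and 156.19, 121.82 and 61.01 TPM in control, and the repressor gene *mxl-3* 35.3, 40.9 and 34.9 TPM in JM03 and 35.4, 19.7 and 12.8 TPM in control (limma adjusted p = 0.383 and 0.475). *hlh-30*, the worm TFEB, named here for that role with its values known, had 29.9, 27.8 and 27.1 TPM in JM03 and 25.6, 20.5 and 5.92 TPM in control.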

How the data were processed

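RNA-seq was deposited as 1 table for 3 JM03 and 3 control libraries, grouped by their titles. The unit of the values deposited by the authors is TPM, at 2 decimals, taken from the columns' sums (997816 to 998884). The tools named per the submitters' processing notes are fastp, HISAT and RSEM, and the build is WBcel235, while the sources used here give no versions, annotation release or strand setting. TPM cannot be turned back into counts, so no count test was run.

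The model was fitted to log2(TPM + 1) of 12912 genes that reached 1 TPM in 3 or more libraries, using limma 3.58.1 in R 4.3.3 (limma-trend, robust prior, no pairing) and Benjamini-Hochberg adjustment over all of them. The limma step was tested on simulated data. Coordinates, strands and transcript lengths came from Ensembl release 115 (WBcel235), which held all 47 members and 46603 of 46778 rows. Figures were drawn with matplotlib 3.10.9.

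The members and gene lists were chosen with earlier results of these data known. The text names, in each role group, the 3 most abundant tested members and the 2 of smallest p, all accessory and cathepsin L-like members, those whose groups did not overlap and those listed at 0, and from each lysosomal list the 2 of smallest p, both cystatins and *unc-32*. Other members named in the text were added, after their values were seen, to complete the classes. Protein and promoter sequences were not analysed here, so no member was named by protein identity. Alternatives were quantile normalization, rescaling to protein-coding genes without ribosomal protein genes, no filter, a filter at 5 TPM, a non-robust prior, 0.1 as the pseudocount, leaving out each library in turn, and a block for replicate number.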

Additional observations from a re-analysis of the deposited data

How the results depend on the processing

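None of the members was called under any of the 13 alternatives, where the smallest adjusted p in limma was 0.133, without control replicate 1. The relative pump median lay between 0.24 (without control replicate 3) and 1.00 (without control replicate 1) when each library was left out, that of the aspartyl proteases between 0.22 and 0.64, that of the cysteine proteases between -0.096 and 0.29, and that of all proteases between 0.081 and 0.42. The cysteine median was near 0 with quantile normalization (-0.0017) and negative without JM03 replicate 1 (-0.025) and without control replicate 2 (-0.096). The log2 of the JM03 mean over the control mean of the summed pump TPM was 0.62, and 0.26 to 0.97 with each library left out, and that of the summed protease TPM 0.59, and 0.35 to 0.95. The log2 ratio of pump to protease sums was higher in JM03 by 0.14, and lay between -0.11 (without control replicate 3) and 0.35 (without control replicate 2). The fold change of *cpr-1* was -0.011 with quantile normalization, -0.054 after rescaling, and between -0.095 and 0.53 with each library left out (-0.041 and -0.095 without JM03 replicates 1 and 2). That of *cpr-4* was -0.057 with quantile normalization and between -0.082 (without control replicate 3) and 0.58. The cause of these turns was not tested. Whether the replicate numbers pair the samples is not stated. Deviations from the group means correlated between -0.15 and 0.079 for same-numbered libraries and between -0.28 and 0.29 for the others. These correlations cannot decide the question, because deviations within a group of 3 sum to 0. With the replicate block 0 members were called (relative pump median 0.69) and 0 genes in all, against 17. TPM keeps no depth, so the counting error behind low members such as *asp-8* and *cpr-8* is unknown.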
